A study of Mus musculus with 15 samples.

Results

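Chil3, Fbp1, Ccl17 and Ccl22, genes known as markers of alternative activation by interleukin-4, were followed in dendritic cells (DC) grown with and without that cytokine. They are 4 of the 8251 genes with a probe set of their own on the array, and each was measured by a single probe set, so 4 of 12422 probe sets are described. The genes were picked from a comparison of the same arrays, for how they differed between the DC types. That difference and its course are therefore given as a description with no test.

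Bone marrow of female NOD mice aged 6 to 8 weeks, a strain that develops autoimmune diabetes, was cultured for 4 days. GM DC received 1 ng/ml GM-CSF and were purified over 16% metrizamide, and GM4 DC received 1 ng/ml GM-CSF with 1 ng/ml interleukin-4 and were purified over 14.5% metrizamide. Both were stimulated with 10 µg/ml lipopolysaccharide (LPS) and 50 ng/ml interferon-γ, and RNA was taken at 0, 6 and 20 h. The label of GM4 0 h replicate 1 omits the doses and the gradient, and for 0 h GM4 DC the source field speaks of stimulation where the title says 0 h. At 0, 6 and 20 h there were 3, 2 and 2 GM arrays and 3, 3 and 2 GM4 arrays. The labels call the replicates biological. All groups share the NOD background and GM-CSF, and the gradient differed together with interleukin-4, so the effects of gradient and cytokine cannot be told apart.

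Interleukin-4 binds a receptor that contains Il4ra, and Janus kinases at that receptor phosphorylate the transcription factor STAT6. In mouse macrophages and DC this pathway raises a set of genes used as markers of alternative activation. LPS, which acts through Tlr4, and interferon-γ are the signals of classical activation. Of the genes followed here, Chil3 (also Ym1) encodes a secreted chitinase-like lectin and Fbp1 a fructose bisphosphatase of gluconeogenesis. Ccl17 and Ccl22 encode chemokines that attract T cells through the receptor Ccr4.

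Promoter sequence was available for all 4 genes and was searched for the palindromic sites that STAT proteins bind. The motifs were TTC and GAA with any 4 bases between them, the spacing STAT6 prefers, the same with 3 bases between them, and GGG and TTTCC with 2 bases between them, a form of the NF-κB site, on either strand. No match overlapped another. The 250 bases before the annotated start are shown for Chil3, Ccl17 and Ccl22, from RefSeq on GRCm38.p6 and in the gene's own direction, with matches in capitals. Chil3 is shown for its large difference between DC types, and the chemokine pair for their contrasting time courses.
Chil3: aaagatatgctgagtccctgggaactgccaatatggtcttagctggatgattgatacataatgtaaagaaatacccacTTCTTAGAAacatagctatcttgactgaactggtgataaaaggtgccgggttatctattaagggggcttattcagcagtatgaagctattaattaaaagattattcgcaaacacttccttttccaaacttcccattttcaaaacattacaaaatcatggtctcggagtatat
Ccl17: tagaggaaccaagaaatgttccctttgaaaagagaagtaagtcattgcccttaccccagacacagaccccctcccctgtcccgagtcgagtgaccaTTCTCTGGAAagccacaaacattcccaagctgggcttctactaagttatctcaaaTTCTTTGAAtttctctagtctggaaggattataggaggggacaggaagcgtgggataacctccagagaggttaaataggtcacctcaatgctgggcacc
Ccl22: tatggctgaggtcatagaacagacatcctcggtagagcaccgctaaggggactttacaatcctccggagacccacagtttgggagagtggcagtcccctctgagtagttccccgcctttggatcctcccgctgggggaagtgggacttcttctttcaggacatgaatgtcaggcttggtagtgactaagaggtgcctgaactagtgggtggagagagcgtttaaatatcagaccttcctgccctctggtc

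The Chil3 window, chr3:106167565-106167814 on the minus strand, holds TTCTTAGAA (the shorter spacing) from 172 to 164 bases before the start. The Ccl17 window, chr8:94810203-94810452 on the plus strand, holds TTCTCTGGAA from 154 to 145 bases and TTCTTTGAA from 99 to 91 bases before the start. No match was found in the Ccl22 window, chr8:94745434-94745683 on the plus strand, or in the Fbp1 window, chr13:62888283-62888532 on the minus strand. Among 32851 RefSeq promoter windows of this length, 5.85% hold the STAT6 spacing, 7.02% the shorter STAT spacing and 1.41% the NF-κB form. These matches describe letters in the window and are not measured binding.

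Values are array signals on the authors' linear scale, and group values are mean ± SD over arrays. Differences are in log2(signal + 16), which understates changes at low signal, and their ± values are standard errors from limma. A change passed when its Benjamini-Hochberg adjusted p over all 12422 probe sets was under 0.05. Per array, the median signal was 40.1 to 48.5, the highest was 5833 to 14706, and 29.7% to 35.3% of probe sets lay below 16. The ratio of 3′ to 5′ Gapdh signal, which rises with RNA degradation, was 1.18 to 2.46 on GM arrays and 1.03 to 1.48 on GM4 arrays, and for β-actin it was 1.43 to 2.26 and 1.13 to 1.44. RNA quality therefore moved with DC type, and its part in the differences is covered only by a covariate fit. All 13 DC markers listed were measured and every group mean was above 16. Group means were 4968 to 8132 for Cd74, 2741 to 5122 for H2-Aa and 201 to 1153 for Itgax. At 0 h 4 of the 13 were higher in GM4 than in GM DC (Cd86, Ly75, Zbtb46 and Fscn1), 1 was lower (H2-DMa) and 8 did not pass. Over all probe sets 6.86% were higher and 7.12% lower at 0 h. At 6 h 1 marker was higher and 0 lower, against 6.39% and 4.74%, and at 20 h 0 passed either way, against 3.14% and 1.56%. Fewer cells of a type and less RNA per cell cannot be told apart in these bulk samples.

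The 4 genes followed 4 courses after stimulation. Chil3 kept its excess in GM4 DC through 20 h, and Fbp1 kept it at 6 h and had none at 20 h. Ccl17 kept an excess while its signal dropped in both DC types, and Ccl22 showed none at 6 h and an excess again at 20 h. Every GM4 array lay above every GM array for 3 of 4 genes at each time, namely Chil3, Fbp1 and Ccl17 at 0 and 6 h and Chil3, Ccl17 and Ccl22 at 20 h. The same held for 12.5% of all probe sets at 0 h, 19.4% at 6 h and 22.5% at 20 h. Because the 4 genes were chosen from these contrasts, nothing is read from those counts.

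**Figure D1:**
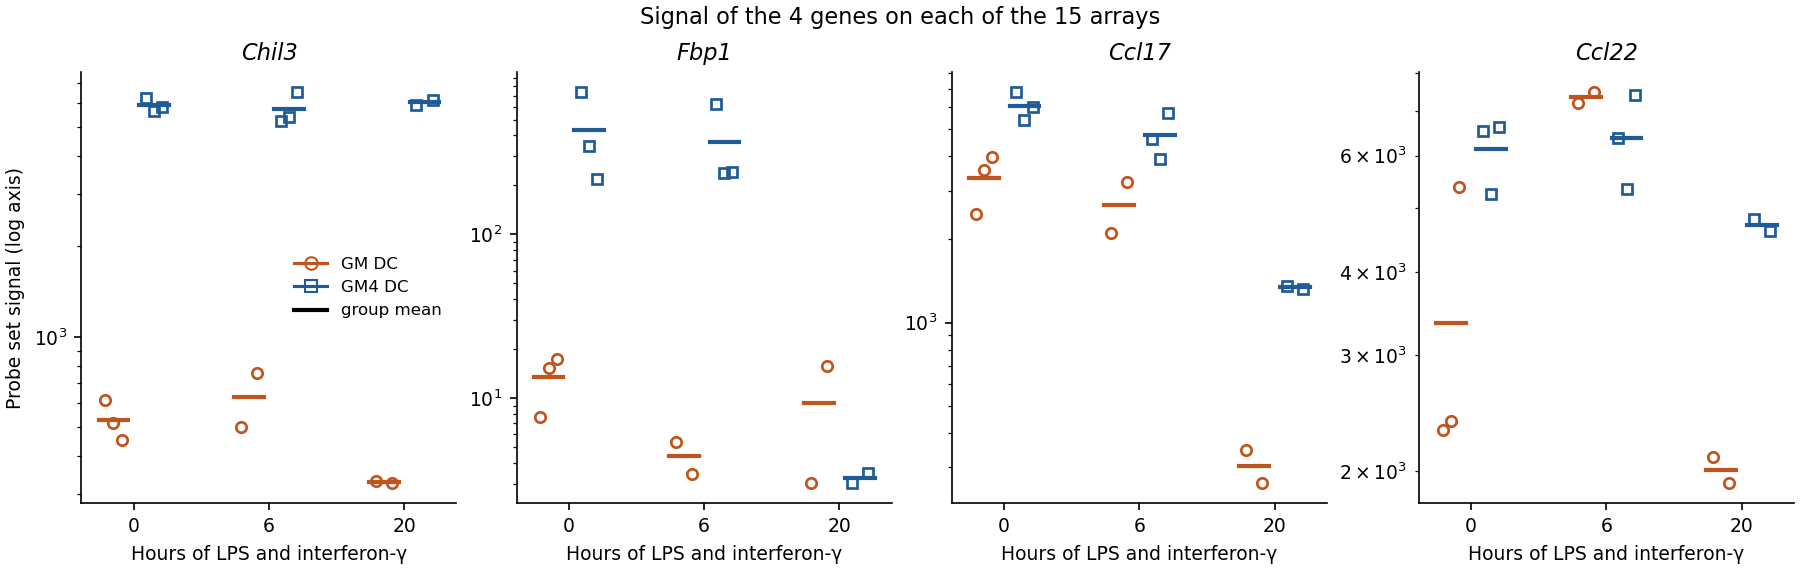
Array signal (log axis) of Chil3, Fbp1, Ccl17 and Ccl22 by DC type and hour after LPS and interferon-γ, 1 point per array. Chil3 stays between 5246 and 6548 on GM4 arrays at all times, and Fbp1 falls on GM4 arrays at 20 h to the level of the GM arrays.

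Chil3 had the most lasting difference between the DC types. In GM DC its signals were 617, 514 and 454 at 0 h, then 499 and 760 at 6 h, and lastly 332 and 325 at 20 h. In GM4 DC they were 6238, 5666 and 5841 at 0 h, then 5246, 5394 and 6548 at 6 h, and lastly 5920 and 6149 at 20 h. The lowest GM4 array was thus far above the highest GM array at every time. GM4 DC exceeded GM DC by 3.46 ± 0.16 at 0 h, 3.18 ± 0.18 at 6 h and 4.13 ± 0.19 at 20 h. These ranked 2nd, 2nd and 1st among the 12422 differences in favour of GM4 DC. In GM4 DC 13 probe sets had a higher mean signal than Chil3 at 0 h, then 10 at 6 h and lastly 8 at 20 h. The highest signals on the GM4 arrays were 5833 to 8451. Chil3 thus lay near the top of the signals on these arrays, and whether that limits its differences was not tested.

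The time course of Chil3 was tested within each DC type. In GM DC the change at 6 h was 0.23 ± 0.18 (limma adjusted p = 0.419), and then Chil3 fell, by 0.65 ± 0.18 at 20 h against 0 h (adjusted p = 0.0124). Between 6 and 20 h in GM DC it fell by 0.88 ± 0.19 (adjusted p = 0.00601). The drop from 0 h did not pass without GM 20 h replicate 1 (-0.66, adjusted p = 0.063) or replicate 2 (-0.64, adjusted p = 0.0801). Nor did the drop from 6 h pass without GM 6 h replicate 2 (-0.58, adjusted p = 0.074). In GM4 DC the changes were -0.05 ± 0.16 at 6 h and 0.03 ± 0.18 at 20 h, neither of which passed (adjusted p = 0.894 and 0.941). The change from 0 h was 0.68 ± 0.25 higher in GM4 than in GM DC at 20 h and -0.28 ± 0.24 at 6 h, without a test.

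In order of signal, GM4 DC at 20, 0 and 6 h came first for Chil3 and lay within their spread of each other. GM DC at 6 and 0 h followed, again within spread, and GM DC at 20 h came last and apart. Over the 15 arrays the genes most like Chil3 were Nup88, a nuclear pore protein (Pearson r = 0.955), Dgka, a diacylglycerol kinase (0.951), and Adam19, a membrane protease (0.941). The comparison covered 4714 genes, and the 15 points share groups, so the correlations are descriptive.

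Neutrophil precursors also make Chil3, so their markers are set beside it. The summed signal of 16 neutrophil markers was 9844 to 10043 in GM DC and 9987 to 15613 in GM4 DC at 0 h. At 20 h it was 4425 to 5574 and 4035 to 4071. At 0 h 3 of the 16 were higher in GM4 than in GM DC (Ly6g, Ltf and Lcn2). Lower were 3 (Mmp8, Csf3r and Fpr2), and 10 did not pass, with a median of 0.46. Over all probe sets 6.86% were higher and 7.12% lower at 0 h. From 0 to 20 h 7 fell and 3 rose in GM DC, and 9 fell and 3 rose in GM4 DC. The medians were -0.77 and -1.07. Over all probe sets 16.0% fell in GM DC and 12.3% in GM4 DC, and the share that rose was not counted. The 3 that rose were Lcn2, Mmp9 and Fpr2 in both. Ctsg had a mean below 16 in every group, and Mpo had means of 32.7 in GM DC and 96.7 in GM4 DC at 0 h and of 7.04 and 7.62 at 20 h. The sum of 11 monocyte and macrophage markers was lower in GM4 DC at 0 h, at 4376 to 5047 against 12606 to 15654 in GM DC. The part of these cells in the Chil3 difference was not tested.

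Fbp1 lost its whole difference late. Its signals in GM DC were 7.67, 15.2 and 17.3 at 0 h, then 5.37 and 3.43 at 6 h, and lastly 3.02 and 15.7 at 20 h, near or below the 16 added before taking logs. In GM4 DC they were 739, 343 and 218 at 0 h, then 626, 236 and 239 at 6 h, and lastly 3.02 and 3.48 at 20 h. The 6 early GM4 arrays were all above the GM arrays, and both late GM4 arrays were among the lowest values of the gene. GM4 DC exceeded GM DC by 3.78 ± 0.41 at 0 h and 4.09 ± 0.46 at 6 h. With GM signals this low the offset sets the size of these values, which were 4.80 and 5.95 with an offset of 1 and 2.55 and 2.54 with an offset of 64. At 20 h the difference was -0.35 ± 0.50, with overlapping arrays, and it was 0.017 without GM 20 h replicate 2 and -0.72 without replicate 1.

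The tested change lay in GM4 DC. Its arrays also entered the choice of Fbp1 for its difference between DC types, which can favour a fall from a high early signal. The p-values are therefore not independent of that choice. In GM4 DC Fbp1 fell by 4.37 ± 0.46 from 0 to 20 h (limma adjusted p = 1.35e-05). From 6 to 20 h it fell by 4.17 ± 0.46 (adjusted p = 7.72e-05). Its change at 6 h in GM4 DC was -0.21 ± 0.41 (adjusted p = 0.828). In GM DC no Fbp1 change passed at any time (adjusted p = 0.493, 0.765 and 0.811). Both falls passed under all 26 alternatives, with the 0 to 20 h change ranging from -6.49 with an offset of 1 to -2.75 with an offset of 64. The change at 20 h was 4.13 ± 0.65 lower in GM4 than in GM DC, without a test. GM4 DC at 0 and 6 h stood first and apart from the other 4 groups, which lay within spread of their neighbours in the order. The closest patterns over the 15 arrays were those of Washc2, part of an endosomal actin-regulating complex (r = 0.926), Tbc1d15, a Rab GTPase-activating protein (0.925), and Kdm3b, a histone demethylase (0.924).

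**Figure D2:**
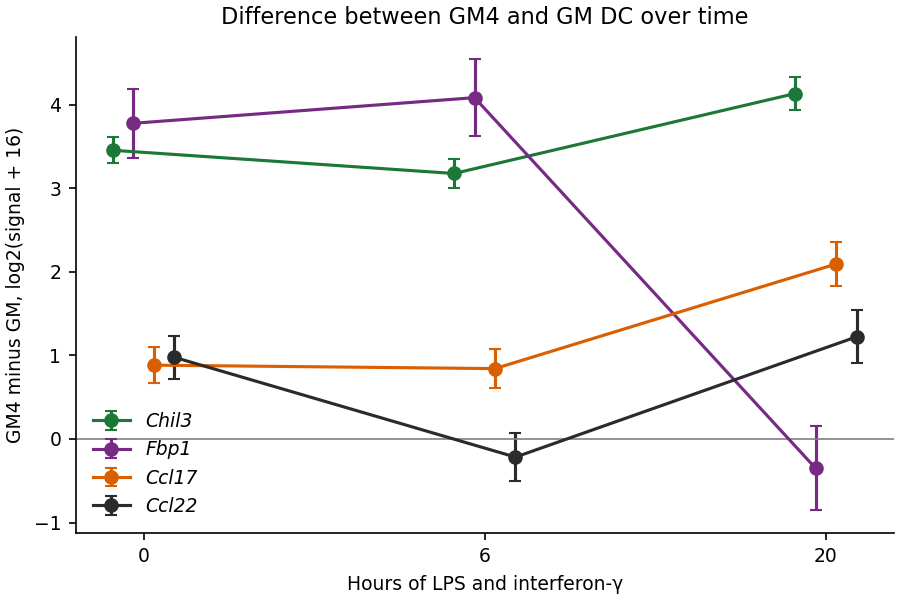
Difference between GM4 and GM DC in log2(signal + 16) at 0, 6 and 20 h for the 4 genes, with limma standard errors as bars. Chil3 stays above 3 at all times, Fbp1 goes from 4.09 at 6 h to -0.35 at 20 h, and Ccl22 is below 0 at 6 h (-0.22), where its sign turns under quantile normalization.

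Ccl17 declined in both DC types, by the larger fitted amount without interleukin-4. GM DC had signals of 2459, 3553 and 3982 at 0 h, then 2104 and 3235 at 6 h, and lastly 346 and 263 at 20 h. GM4 DC had 6819, 5376 and 5998 at 0 h, then 4603, 3907 and 5734 at 6 h, and lastly 1356 and 1327 at 20 h. At each time every GM4 array was above every GM array, and both 20 h groups were below all earlier arrays of their own type. GM4 DC exceeded GM DC by 0.88 ± 0.21 at 0 h, 0.84 ± 0.24 at 6 h and 2.09 ± 0.26 at 20 h, which ranked 421st, 499th and 18th. Without GM 6 h replicate 1 the 6 h difference was 0.53. In GM4 DC 8 probe sets had a higher mean signal than Ccl17 at 0 h and 31 at 6 h. Ccl17 thus also lay near the top of the early GM4 arrays, and whether that limits its differences and its fall was not tested.

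By 20 h Ccl17 had fallen by 3.37 ± 0.24 from 0 h in GM DC (limma adjusted p = 2.02e-07) and in GM4 DC it fell by 2.16 ± 0.24 (adjusted p = 2.06e-05). From 6 to 20 h it fell by 3.05 ± 0.26 in GM DC (adjusted p = 5.29e-06), and in GM4 DC it fell by 1.79 ± 0.24 (adjusted p = 0.000268). The first 6 h brought -0.32 ± 0.24 in GM DC and -0.36 ± 0.21 in GM4 DC, which did not pass (adjusted p = 0.389 and 0.309). Most of the decline therefore fell between 6 and 20 h in both types. The loss at 20 h was 1.21 ± 0.33 smaller in GM4 DC, without a test. In the order of levels, the early groups overlapped from one to the next, and GM4 DC at 20 h and then GM DC at 20 h stood apart below them. The genes most like Ccl17 were Rps3 (r = 0.982) and Rpl8 (0.979), which encode ribosomal proteins, and Crip1, a LIM domain protein (0.978).

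Ccl22, the other Ccr4 ligand, was the only 1 of the 4 genes with a rise that passed. In GM DC it had signals of 2312, 2383 and 5375 at 0 h, then 7202 and 7492 at 6 h, and lastly 2102 and 1919 at 20 h. In GM4 DC it had 6535, 5252 and 6637 at 0 h, then 6384, 5336 and 7399 at 6 h, and lastly 4806 and 4612 at 20 h. GM 0 h replicate 3, the 5375, lay above the lowest GM4 array at 0 h, and that array also had the highest Gapdh ratio, 2.46. The part of RNA quality in that value was not tested.

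GM4 DC exceeded GM DC in Ccl22 by 0.98 ± 0.26 at 0 h, or by 1.37 without GM 0 h replicate 3, and at 20 h by 1.22 ± 0.32. At 6 h the difference was -0.22 ± 0.29 with overlapping arrays, and its sign turned under quantile normalization (0.43) and with RNA quality as a covariate (0.57). The same covariate moved the 0 h difference to 1.74 and the 20 h difference to 2.20. In GM DC Ccl22 rose by 1.24 ± 0.29 at 6 h (limma adjusted p = 0.00568) and fell by 1.86 ± 0.32 from 6 to 20 h (adjusted p = 0.00108). The rise did not pass when only the groups compared were fitted (adjusted p = 0.0702). GM DC ended at -0.62 ± 0.29 against 0 h (adjusted p = 0.14). In GM4 DC the changes were 0.05 ± 0.26 at 6 h and -0.37 ± 0.29 at 20 h, and neither passed (adjusted p = 0.942 and 0.425). The change from 0 h to 6 h differed by -1.19 ± 0.39 in GM4 against GM DC, or by -0.68 under quantile normalization, without a test.

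GM DC at 6 h held the highest Ccl22 level, followed within spread by GM4 DC at 6 and 0 h. GM4 DC at 20 h lay below those, beyond the spread, and was followed within spread by GM DC at 0 h and then 20 h. The closest patterns were Fscn1, an actin-bundling protein of mature DC (r = 0.911), Tmem123, a membrane protein (0.907), and Cd83, a surface protein of mature DC (0.902). In GM DC at 6 h 28 probe sets had a higher mean signal than Ccl22, and in GM4 DC at 6 h 3 did, so Ccl22 too lay near the top of the GM4 arrays.

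Across the 4 genes, tests of change with time used arrays that also entered the choice of genes, so their p-values are not independent of it. At 6 h against 0 h, 1 of 4 rose in GM DC, where 8.52% of all probe sets rose. In GM4 DC 0 of 4 passed either way, 0 also at an unadjusted p under 0.05, where limma called 15.9% of all probe sets. By 20 h against 0 h 2 of 4 fell in GM DC (Chil3 and Ccl17), against 16.0% of all probe sets, and 2 of 4 in GM4 DC (Fbp1 and Ccl17), against 12.3%. From 6 to 20 h 3 of 4 fell in GM DC, against 7.75%, and 2 of 4 in GM4 DC, against 6.01%. Of the 4 genes, Ccl17 passed in both DC types at 20 h.

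**Figure D3:**
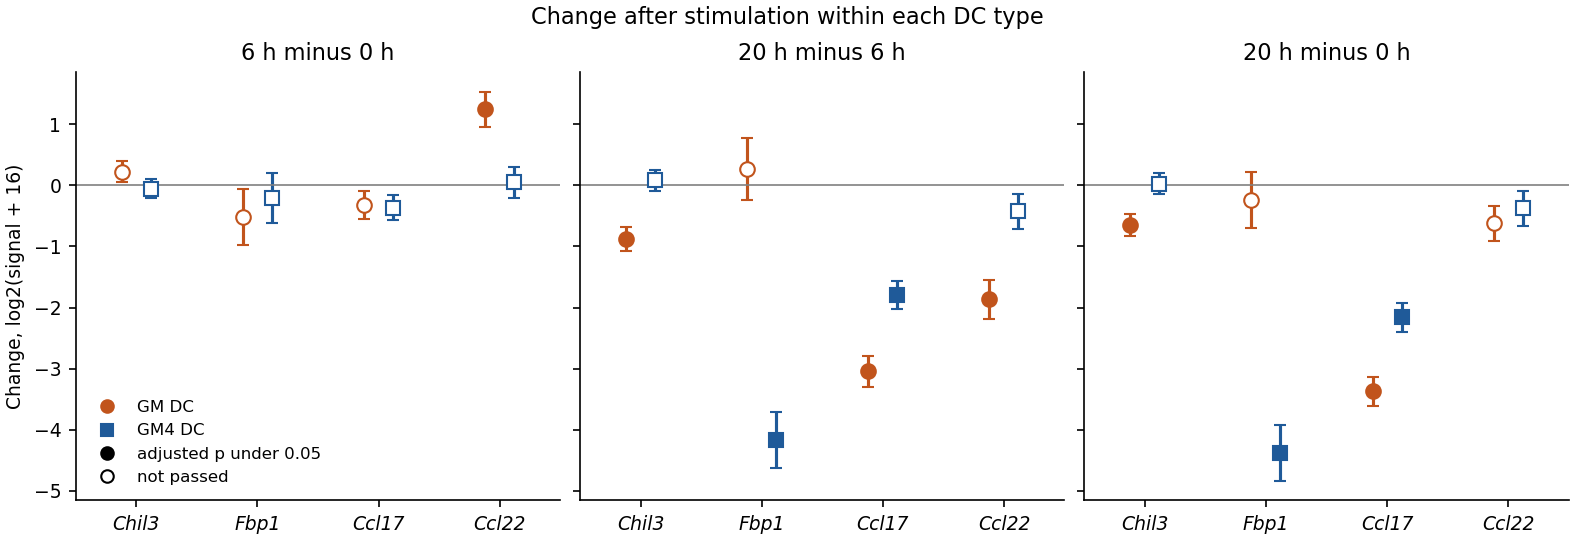
Change in log2(signal + 16) for the 4 genes in GM and GM4 DC, with limma standard errors as bars. The panels show 6 h against 0 h, 20 h against 6 h and 20 h against 0 h. Among the changes that passed, Ccl17 falls at 20 h in both DC types, Fbp1 in GM4 DC only and Chil3 in GM DC only. Ccl22 rises at 6 h in GM DC and falls there from 6 to 20 h.

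Other genes of the interleukin-4 pathway were measured for comparison, from a list of 46 genes known to respond to interleukin-4 or STAT6, of which 31 had a probe set. At 0 h 10 were higher in GM4 DC, 6 were lower and 15 did not pass, with a median difference of 0.04. Over all probe sets 6.86% were higher and 7.12% lower at 0 h, with a median of -0.06. At 6 h 5 were higher and 9 lower (median -0.20), against 6.39% and 4.74% of all probe sets (median -0.04). At 20 h 4 were higher and 2 lower (median -0.26), against 3.14% and 1.56% (median -0.04). Without GM 6 h replicate 1 the lower count at 6 h was 5. At 20 h the higher count was 2 without GM4 20 h replicate 1 or GM 20 h replicate 2. The lower count there was 0 without GM4 20 h replicate 1 or 2 or GM 20 h replicate 2, and 1 without GM 20 h replicate 1 or GM 0 h replicate 2. With only the groups compared it was 5. Several other common alternative activation markers (Retnla, Mgl2, Clec10a, Chil4 and Ccl24) were not measured by a probe set of their own here. Cross-reaction of the Chil3 probe set with the close relative Chil4 was not tested.

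The higher genes at 0 h included transcription factors of DC and feedback inhibitors of cytokine signalling. Irf4 was higher by 2.15 ± 0.25 (limma adjusted p = 8.15e-05) and Batf3 by 2.11 ± 0.18 (adjusted p = 1.25e-05). The maturation marker Cd83 was higher by 1.78 ± 0.26, and the inhibitors Socs2 and Cish by 1.77 ± 0.18 and 1.63 ± 0.24. Batf3 and Socs2 also passed at 6 h (1.73 ± 0.20 and 2.15 ± 0.20) and at 20 h (1.39 ± 0.22 and 2.33 ± 0.21). So did Irf4, at 1.69 ± 0.28 and 1.61 ± 0.31, though not with the RNA quality covariate (1.33 and 1.17), nor at 20 h without GM4 20 h replicate 1 (1.46) or GM 20 h replicate 2 (1.21). Cd83 was at 0.52 ± 0.29 at 6 h (adjusted p = 0.294) and passed at 20 h (1.45 ± 0.32), but not without GM4 20 h replicate 1 (1.40) or 2 (1.51) or GM 20 h replicate 2 (1.02). Cish passed at 6 h (0.98 ± 0.27), but not with the covariate (0.55) or without GM4 6 h replicate 1 (0.71) or 3 (1.08) or GM 6 h replicate 1 (1.14) or 2 (0.83), and at 20 h it was at 0.38 ± 0.30 (adjusted p = 0.596). Arg1, the arginase marker of alternative activation, was chosen for mention after its values were seen. It was higher by 1.00 ± 0.17 at 0 h and 1.25 ± 0.19 at 6 h and was at -0.40 ± 0.21 at 20 h (adjusted p = 0.362). The change from 0 h itself differed between DC types for 3 of the 31 list genes at 6 h and 3 at 20 h, all lower in GM4 DC, against 0.958% and 1.26% of all probe sets in either direction. In signal, Arg1 went from 987 to 3434 in GM DC and from 1993 to 2590 in GM4 DC between 0 and 20 h.

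Some genes of this interleukin-4 response list were lower in GM4 DC at 0 h, the opposite direction to the 4 genes, and these included macrophage genes. Pparg was among them, at -0.81 ± 0.19. Klf4, a transcription factor of monocytes, was at -1.55 ± 0.18, and Il1rn, the interleukin-1 receptor antagonist, at -1.51 ± 0.15. The scavenger receptor Stab1 was at -1.50 ± 0.20, the mannose receptor Mrc1 at -1.22 ± 0.21 and the metalloelastase Mmp12 at -0.93 ± 0.16, though Mmp12 did not pass with RNA quality as a covariate (-0.58, adjusted p = 0.0845). Id2, the most abundant list gene that did not pass at 0 h, was at -0.20 ± 0.14. The monocyte and macrophage marker sum above was lower in the same GM4 samples, and its part in these differences was not tested.

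**Figure D4:**
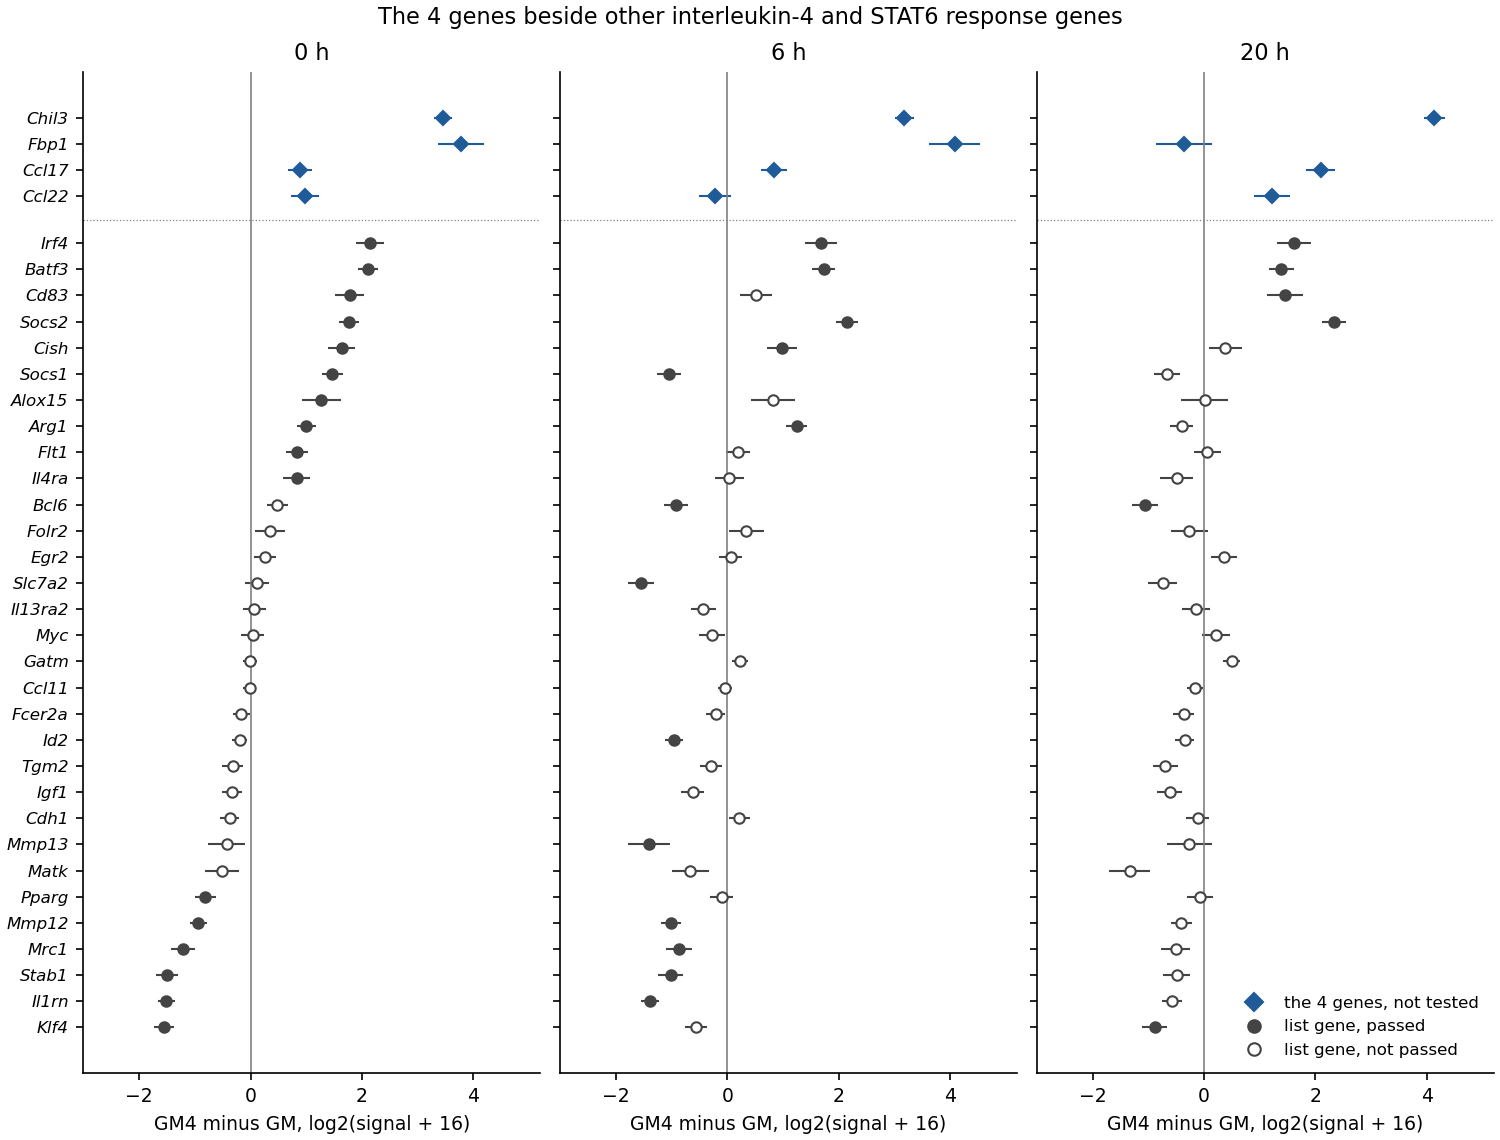
Difference between GM4 and GM DC in log2(signal + 16) for the measured genes of the interleukin-4 and STAT6 list at 0, 6 and 20 h. At 0 h 10 genes passed higher and 6 lower, and at 20 h 4 and 2.

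Of 17 measured receptor and signalling genes, 7 were higher and 0 lower at 0 h, 1 was higher and 4 lower at 6 h, and 1 was higher and 1 lower at 20 h. Over all probe sets the higher and lower shares were 6.86% and 7.12%, 6.39% and 4.74%, and 3.14% and 1.56%. The 7 became 4 with the RNA quality covariate and without GM4 0 h replicate 1 or GM 0 h replicate 2. The lower count at 0 h was 1 with array weights or the covariate. At 6 h, 0 were higher and 0 lower without GM 6 h replicate 1, and 1 was lower with only the groups compared. There 2 were higher without GM 0 h replicate 1 or 3 and with the filter on low probe sets or a replicate block. At 20 h, 4 were lower with only the groups compared and 3 with the covariate. With array weights or without GM4 6 h replicate 1 or 3, 2 were lower. The higher count at 20 h was 2 without GM4 0 h replicate 3, GM4 6 h replicate 1 or 3, or GM 0 h replicate 2 or 3. It was also 2 with an offset of 1, the filter, array weights, the block or only the groups compared. With the covariate 0 were higher at 6 h and 0 at 20 h. By unadjusted p under 0.05, 10, 8 and 7 of the 17 passed at those times in either direction. The kinase Jak2 was higher by 1.78 ± 0.17 at 0 h, Pik3r1 of the PI3 kinase by 1.57 ± 0.24 and the inhibitor Socs1 by 1.47 ± 0.20. The kinase Tyk2 (1.10 ± 0.33, limma adjusted p = 0.0376) and the receptor chain Il4ra (0.83 ± 0.24, adjusted p = 0.0325) passed less firmly. Tyk2 did not pass without GM4 0 h replicate 1 (1.08) or 2 (0.96), GM 0 h replicate 2 (0.73), GM4 6 h replicate 2 or either GM4 20 h array (1.10 each), nor with the covariate (0.83) or only the groups compared. Il4ra did not pass without GM4 0 h replicate 1 (0.86) or 3 (0.60) or without GM 0 h replicate 1 (0.88), 2 (0.80) or 3 (0.81), nor with the covariate (0.77, adjusted p = 0.242) or as the mean of its probe sets (0.36, adjusted p = 0.295). The phosphatase Ptpn1 was at -0.42 ± 0.18 and did not pass, though it did with array weights (-0.55, limma adjusted p = 0.0272).

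Relatives and partners of the 4 genes were compared next. Chil1, a chitinase-like protein related to Chil3, was lower in GM4 DC at every time, at -1.55 ± 0.27, -1.94 ± 0.30 and -1.32 ± 0.33 (limma adjusted p = 0.00158, 0.000991 and 0.0369). The 20 h value did not pass without GM4 20 h replicate 1 (-1.57) or 2 (-1.06) or without GM 20 h replicate 1 (-1.28) or 2 (-1.35). The chitinase Chia1 did not pass at 0 h (-0.35). Of 15 measured genes around the step of Fbp1, 1 was lower and 0 higher at 0 h, against 7.12% and 6.86% of all probe sets. The lower gene was Aldoc (-0.65 ± 0.19, adjusted p = 0.0319). That call was lost without GM4 0 h replicate 3 (-0.48), GM 0 h replicate 1 (-0.67) or GM 0 h replicate 2 (-0.47), and with median centring (-0.58), the RNA quality covariate (-0.91) or only the groups compared. At 0 h 2 were lower with an offset of 1, the filter on low probe sets, array weights, a replicate block or without GM4 0 h replicate 2. There 1 was higher with array weights, the block or without GM4 0 h replicate 3. Limma called 0 of the 15 at 6 h and 0 at 20 h, with 4 and 3 at an unadjusted p under 0.05. Over all probe sets 6.39% were higher and 4.74% lower at 6 h, and 3.14% and 1.56% at 20 h. At 6 h it called 3 lower when GM 6 h replicate 2 was left out, 2 when GM4 6 h replicate 1 was, and 1 with the filter on low probe sets or array weights. At 20 h it called 1 lower with only the groups compared and 1 higher without GM 20 h replicate 1.

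The receptor of the chemokine pair was barely detected, with mean Ccr4 signals of 6.25 to 9.77 in the 6 groups. The other genes listed as receptors or proteases of the pair were also low. Group means were 6.56 to 28.4 for Ackr2, 29.2 to 38.7 for Dpp4 and 6.25 to 14.4 for Ccr8. Between DC types limma called 0 of these 4 genes at 0, 6 or 20 h (0, 0 and 1 at an unadjusted p under 0.05). Cx3cl1, a chemokine gene that lies between Ccl22 and Ccl17 on their chromosome, was higher in GM4 DC by 1.77 ± 0.23 at 0 h (adjusted p = 0.000159). At 6 h it was at 0.76 ± 0.26 (adjusted p = 0.0743) and at 20 h at 1.40 ± 0.28 (adjusted p = 0.0105). The 6 h difference passed without GM 0 h replicate 3 (adjusted p = 0.0488), with the filter on low probe sets (adjusted p = 0.0454) and with the RNA quality covariate (1.28, adjusted p = 0.0221). The 20 h difference did not pass without GM4 20 h replicate 1 (1.49) or 2 (1.31) or without GM 20 h replicate 2 (1.12), nor as the mean of its probe sets (0.61, adjusted p = 0.168). The chemokine Ccl1 did not pass at 0 h.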

How the data were processed

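Each of the 15 DC samples was measured on its own Affymetrix mouse array. The authors deposited a linear intensity for each probe set. MAS5 is named in the submitters' processing notes; no version is given in the sources used here. The deposited arrays share a 2% trimmed mean of 150.1, so they had been scaled to it. Such scaling would hide a global change in RNA content, and low signals are noisy. Single-probe values and detection calls are not analysed here.

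Of 12488 probe sets, 66 controls were left out. In the platform annotation 10833 probe sets had 1 gene symbol, 396 had several and 1193 none, and 10817 of the first kind matched a RefSeq gene table (GRCm38.p6) by Entrez number. With limma 3.58.1 under R 4.3.3, 6 group means of log2(signal + 16) were fitted to all 15 arrays and moderated with an intensity trend (9 residual degrees of freedom, 4.76 prior). Benjamini-Hochberg adjustment ran over 12422 probe sets per contrast, two-sided, with a threshold of 0.05. The fit was tested on simulated data. The labels do not say whether replicates came from separate animals, so p-values measure only the spread between these samples, and precision is limited by the number of arrays.

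The 4 genes and all lists were chosen with earlier results of these data known. Named were the 4 genes, up to 5 list genes passing each way at 0 h, the most abundant list gene not passing, and for each of the 4 genes the 3 most correlated genes with a mean log2 of at least 6. For a list gene the probe set of highest mean was used. Neighbours in an order of levels were called beyond spread when their arrays did not overlap and the gap in mean log2 exceeded the sum of the SDs. Promoter windows of 250 bases came from a RefSeq table.

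The alternatives tried were quantile normalization, centring on the median, offsets of 1 and 64, dropping probe sets under the 40th percentile, no intensity trend, array weights, only the groups compared, a replicate block, an RNA quality covariate (mean log2 3′ to 5′ ratio of Gapdh and β-actin), averaging a gene's probe sets, and leaving out each array in turn.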

Additional observations from a re-analysis of the deposited data

Results flagged for a closer look

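Some genes of the interleukin-4 lists responded differently in the DC types, by limma's test of the difference of responses (change from 0 h in GM4 DC minus that in GM DC). Only genes named above are followed here, namely Socs1, Jak2 and Arg1. Other list genes that passed are given without the alternatives. They were Bcl6 at 6 h (-1.41 ± 0.29, adjusted p = 0.0326) and 20 h (-1.54 ± 0.30, adjusted p = 0.0276). Slc7a2 passed at 6 h (-1.66 ± 0.32, adjusted p = 0.0244) and Il13ra1 at 20 h (-1.22 ± 0.21, adjusted p = 0.0151). Socs1, the feedback inhibitor of Janus kinases, had a difference of -2.52 ± 0.29 at 6 h (adjusted p = 0.00141) and -2.13 ± 0.31 at 20 h (adjusted p = 0.00561). Its mean signal at 0 h was 243 in GM DC and 689 in GM4 DC. By 20 h these were 3923 and 2479. Over 26 alternatives the adjusted p was 0.000406 to 0.0135 at 6 h and 0.00211 to 0.0538 at 20 h, where the call was lost without GM4 20 h replicate 2 (-2.04).

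Jak2 differed by -1.90 ± 0.26 at 6 h (adjusted p = 0.00286). It went from 315 to 951 in GM DC and from 1117 to 886 in GM4 DC, and the difference did not pass as the mean of all its probe sets (-1.08, adjusted p = 0.187). Over the alternatives the adjusted p was 0.00122 to 0.187.

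Arg1, chosen after its values were seen, differed by -1.40 ± 0.27 at 20 h (limma adjusted p = 0.0243, 0.0113 to 0.13 over the alternatives). It did not pass without GM4 0 h replicate 2 (-1.35), GM4 20 h replicate 1 (-1.45) or 2 (-1.34), or GM 20 h replicate 1 (-1.23) or 2 (-1.56).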

How the results depend on the processing

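Of the 24 changes with time tested for the 4 genes, 10 passed, and 7 of these passed under all 26 alternatives. Of the 14 that did not pass, 13 passed under none. With only the groups compared, Ccl22 in GM DC at 6 h (1.24) and Chil3 from 6 to 20 h in GM DC (-0.88) did not pass, nor did Chil3 at 20 h in GM DC with median centring (-0.53). Ccl22 at 20 h in GM DC passed with quantile normalization (-0.71) and with the RNA quality covariate (-0.80). Small changes at 6 h in GM4 DC turned sign, Ccl22 with array weights (-0.049) and Chil3 with quantile normalization (0.068) and median centring (0.0061). The cause was not tested for any of these.

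Among the differences of the 4 genes between DC types, direction turned for Ccl22 at 6 h (0.43 quantile, 0.57 covariate) and for Fbp1 at 20 h without GM 20 h replicate 2 (0.017). The others kept it under all alternatives run. An offset of 1 moved Fbp1 to 4.80, 5.95 and -0.95 at 0, 6 and 20 h, and its differences of responses to 1.15 and -5.75. An offset of 64 gave 2.55 and 2.54 at 0 and 6 h and -2.67 for the 20 h difference of responses. The covariate moved Ccl22 to 1.74 and 2.20 at 0 and 20 h, Ccl17 to 1.28, 1.25 and 2.60 at 0, 6 and 20 h, and Chil3 to 3.93 at 20 h. Quantile normalization moved Chil3 to 3.45 and 4.34 at 6 and 20 h, Ccl17 to 1.20 at 6 h and the Ccl22 difference of responses at 6 h to -0.68.

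The 6 h count of higher interleukin-4 list genes was 3 with the covariate, and the 20 h count of lower genes was 4 with the filter and 5 with only the groups compared. Signs of unpassed values of named genes turned for Aldoa at 0 h (0.047, median centring), Ccl1 at 0 h (0.94, covariate), Jak2 at 6 h (0.085, mean of probe sets), Il4ra at 6 h (-0.11 array weights, -0.018 covariate, -0.20 mean of probe sets), Cish at 20 h (-0.15, covariate) and Mmp12 at 20 h (0.050, covariate).

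Leaving out 1 array gave these ranges. GM4 against GM ran from 0.77 to 1.37 for Ccl22 at 0 h, and at 6 h from 2.88 to 3.47 for Chil3 and from 0.53 to 1.15 for Ccl17, and at 20 h from -0.72 to 0.017 for Fbp1. In GM DC at 6 h Chil3 ran from -0.069 to 0.52. At 20 h against 0 h in GM DC it was -0.75 to -0.54 for Chil3 and -0.61 to 0.12 for Fbp1, and against 6 h it was -1.17 to -0.58 and -0.10 to 0.64. At 6 h in GM4 DC it was -0.065 to 0.17 for Ccl22, -0.15 to 0.0080 for Chil3 and -0.65 to 0.25 for Fbp1, and at 20 h -0.00068 to 0.068 for Chil3. The differences of responses at 6 h ran from -1.59 to -0.99 for Ccl22, -0.57 to 0.018 for Chil3 and -0.35 to 0.27 for Ccl17, and at 20 h from -0.15 to 0.45 for Ccl22. List counts ran from 5 to 10 lower at 6 h and, at 20 h, from 2 to 5 higher and 0 to 3 lower. Unpassed values ran from -0.063 to 0.011 for Aldoa and -0.79 to 0.0050 for Ccl1 at 0 h, and from -0.22 to 0.019 for Jak2 and -0.23 to 0.29 for Il4ra at 6 h.

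No pairing of the replicate numbers is stated, but same-numbered arrays shared variation. Their deviations from group means correlated with a median of 0.10 (lowest 0.0026), and 17 of 33 pairs were above 0.1. For arrays of other numbers the median was -0.076, and 2 of 60 pairs were above 0.1. By this measure 13 of 15 arrays were closest to their own number. Deviations cancel within each group, so higher correlations at the same number bring lower ones at other numbers. These values are therefore not separate pieces of support. The main fit leaves this shared variation out, and the replicate block takes it in. With the replicate block the Ccl22 rise in GM DC at 6 h was 1.43 and the Fbp1 fall in GM4 DC at 20 h was -4.54. The block changed no call of the 4 genes and left the interleukin-4 list counts at 10 and 6, 5 and 9, and 4 and 2. It moved Cx3cl1 at 6 h (0.58) and Jak2 at 20 h (0.77) past the threshold. In the main fit Jak2 at 20 h was at 0.77 ± 0.21 (limma adjusted p = 0.0523). Jak2 also passed there with an offset of 1, the filter on low probe sets, array weights or only the groups compared. Leaving out GM4 0 h replicate 3, GM4 6 h replicate 1 or 3, or GM 0 h replicate 2 or 3 had the same result. Fbp1 in GM DC and at 20 h in GM4 DC lay near or below the offset of 16, where small differences were not detectable.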

Other observations

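Fbp1 varied more within unstimulated and 6 h GM4 DC than the other 3 genes. The arrays numbered replicate 1 had signals of 739 at 0 h and 626 at 6 h, and the other 4 arrays of these groups lay between 218 and 343. The SD of log2(signal + 16) was 0.85 at 0 h and 0.77 at 6 h for Fbp1, against 0.07 and 0.17 for Chil3 in the same groups. This was noticed after the values were seen.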
